A study of Mus musculus with 4 samples.

Results

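The miRNAs described here are those that were lower in splenic CD4+ T cells of an MRL/lpr mouse than of a B6 mouse. They are what remains of the list of lower miRNAs once a set of named families is put aside. Put aside by name were let-7, miR-98, miR-181, miR-150, miR-26a, miR-26b, miR-200a, miR-10a, miR-10b, miR-99, miR-100, miR-125 and miR-351. There remained 28 of the 45 lower miRNAs, among 114 listed in all. Names with an identical sequence were counted once, which gave 24 distinct sequences. They were chosen by their reads and RPM in these 2 libraries, and so their lower level in MRL/lpr is a description and not a result.

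The B6 library came from a C57BL/6J mouse, the control strain. The MRL/lpr library came from a mouse labelled MRL/lpr-Tnfrsf6lpr, a lupus model that carries the lpr mutation of *Fas* on the MRL background. Both mice were females of 16 weeks, and untreated as far as the labels go. CD4+ T cells were left after bead depletion of the other splenocytes, and each mouse gave 1 library of small RNA and 1 of mRNA. The series text speaks of 2 B6 mice, whereas the labels name 1. Strain background, the lpr mutation and disease therefore cannot be told apart from the single mouse, and no test between strains was possible.

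A miRNA is cut from a hairpin precursor, from which either arm (5p or 3p) can be loaded into an Argonaute protein. Bases 2 to 8 of the loaded strand, its seed, pair with target mRNAs and reduce their stability and translation. Naive and activated T cells carry different sets of miRNAs, since activation lowers Argonaute levels and changes the transcription of many miRNA genes.

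The 24 sequences have 22 distinct seeds, and 11 come from a 5p arm and 13 from a 3p arm. None of the seeds occurred among the higher miRNAs or among the lower families left out. Families were put aside by name, so the absence of their seeds is largely built in. How often the seeds of other lower miRNAs recur among the higher ones was not counted, so nothing is read from this. Matched by name, the opposite arm of none of these hairpins was in the list of higher miRNAs. MiR-128-1-5p is left out of this statement, since its opposite arm can carry another name and was not looked up. Sequences below are those of the deposited table, written 5′ to 3′ with the seed in capitals. Of the 24, 13 are identical to the RefSeq mature miRNA of that name (GRCm38.p6) and 1 differs.

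The largest group was that of the miR-466, miR-467 and miR-669 families, shown because some of its sequences are close to each other:
miR-466a-3p/miR-466e-3p: tATACATAcacgcacacataaga
miR-466b-3p/miR-466c-3p/miR-466p-3p: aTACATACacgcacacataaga
miR-466d-3p: tATACATAcacgcacacatag
miR-467e-5p: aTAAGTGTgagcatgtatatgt
miR-669c-5p: aTAGTTGTgtgtggatgtgtgt
miR-669o-5p: tAGTTGTGtgtgcatgtttatgt
miR-669a-3p/miR-669o-3p: aCATAACAtacacacacacgtat
In these names a slash joins miRNAs with the same mature sequence and hence the same reads. MiR-466a/e-3p and miR-466d-3p have the same seed and share a run of 20 bases. The sequence of miR-466b/c/p-3p is that of miR-466a/e-3p without its first base, so that its seed is shifted by 1 base.

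The other hairpins with both arms listed, and the other pairs of similar sequences, were miR-423, miR-28a, miR-101 and miR-1843:
miR-423-3p: aGCTCGGTctgaggcccctcagt
miR-423-5p: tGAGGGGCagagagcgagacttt
miR-28a-5p: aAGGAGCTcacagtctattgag
miR-28a-3p: cACTAGATtgtgagctgctgga
miR-101a-3p: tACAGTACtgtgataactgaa
miR-101b-3p: tACAGTACtgtgatagctgaa
miR-1843a-5p: tATGGAGGtctctgtctgact
miR-1843b-5p: aTGGAGGTctctgtctgactt
The pair miR-101a-3p and miR-101b-3p has 1 seed and agrees over its first 15 bases. RefSeq gives miR-101b-3p as gTACAGTActgtgatagct, which starts 1 base earlier, so the seed depends on which end is used. MiR-1843a-5p and miR-1843b-5p share 20 bases but start 1 base apart, and their seeds differ.

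The most abundant of the rest have these sequences:
miR-342-3p: tCTCACACagaaatcgcacccgt
miR-30d-5p: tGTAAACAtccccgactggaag
miR-30e-3p: cTTTCAGTcggatgtttacagc
The remaining members are miR-128-1-5p, miR-744-5p, miR-874-3p, miR-1964-3p, miR-3068-3p and miR-3096a-5p. MiR-3096a-5p is 18 bases long, while the other 23 have 21 to 23 bases.

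RPM express reads relative to the trimmed reads of a library, of which there were 33634335 in B6 and 29971024 in MRL/lpr. The 24 sequences together had 110839 reads (3295 RPM) in B6 against 34154 reads (1139.6 RPM) in MRL/lpr. They made up 1.82% of the authors' miRNA total in B6 and 0.524% in MRL/lpr. For the 17 lower sequences left out these shares were 37.8% and 7.52%. Thus the members are for the most part miRNAs of low or middle abundance, with a median of 22.2 RPM in B6 against 6.11 RPM in MRL/lpr. The medians were 307 and 121 RPM for those left out. MiR-423-3p, miR-342-3p, miR-30d-5p, miR-423-5p and miR-30e-3p held 78.6% of the members' RPM in B6 and 75.4% in MRL/lpr. In the B6 library 7 members had at least 100 RPM and 7 had fewer than 10 RPM.

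**Figure D1:**
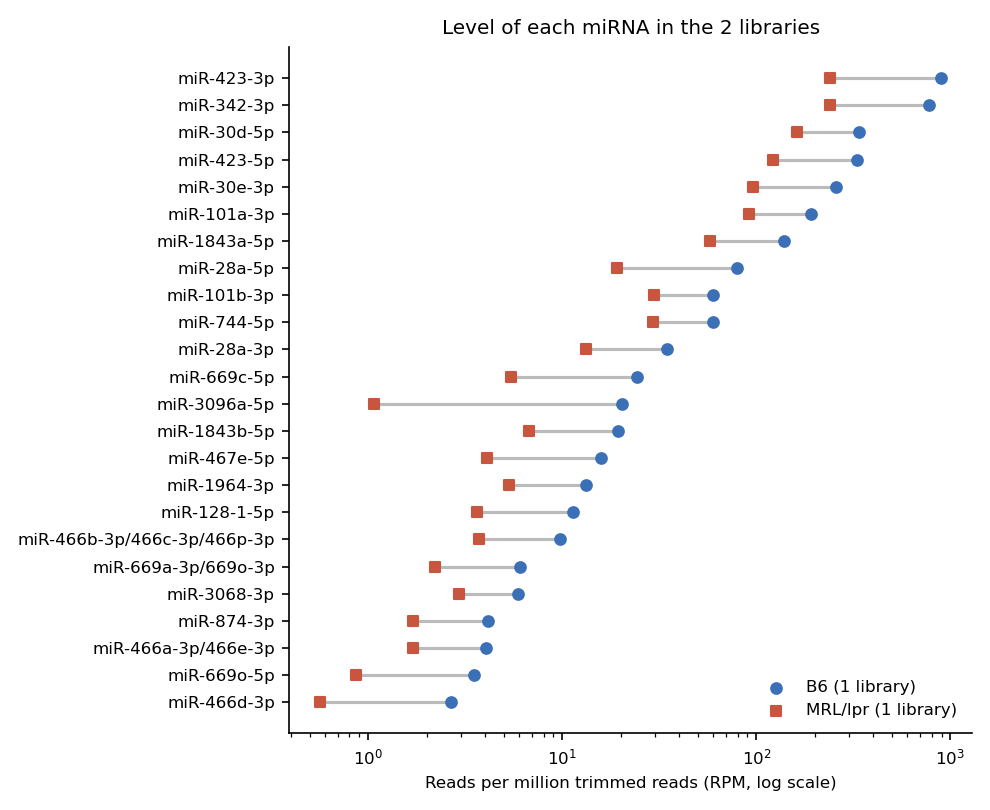
Level of each of the 24 sequences in RPM (log scale), with a circle for the B6 library and a square for the MRL/lpr library, ordered by the B6 level. The levels in B6 run from 2.68 RPM for miR-466d-3p to 894 RPM for miR-423-3p, and the widest gap is that of miR-3096a-5p.

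Folds are given as the B6 RPM over the MRL/lpr RPM, with exact Clopper-Pearson 95% intervals that cover counting error only and not the spread between mice. The median fold of the 24 sequences was 2.69, and the range was 2.0 to 18.9. Over all 41 distinct lower sequences, the members included, the median was 2.70, and over the 17 left out it was 2.97. Of the members, 5 had a fold of at least 4, 4 had a fold from 3 to under 4, and 15 had a fold under 3. Of the 17 lower sequences left out, 7 had a fold of at least 4. Among all listed miRNAs, the higher ones included, 39.5% were lower by 2-fold or more and 10.5% by 4-fold or more. Since the rule used this contrast, nothing is read from these shares. The members just inside the limit of 2 were miR-3068-3p at 2.0, miR-101b-3p at 2.01 and miR-744-5p at 2.02, and miRNAs just outside it were not analysed here. The counting interval included 2 for 5 members. Near the limit of 100 reads over both libraries stood miR-466d-3p, with 107 reads.

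**Figure D2:**
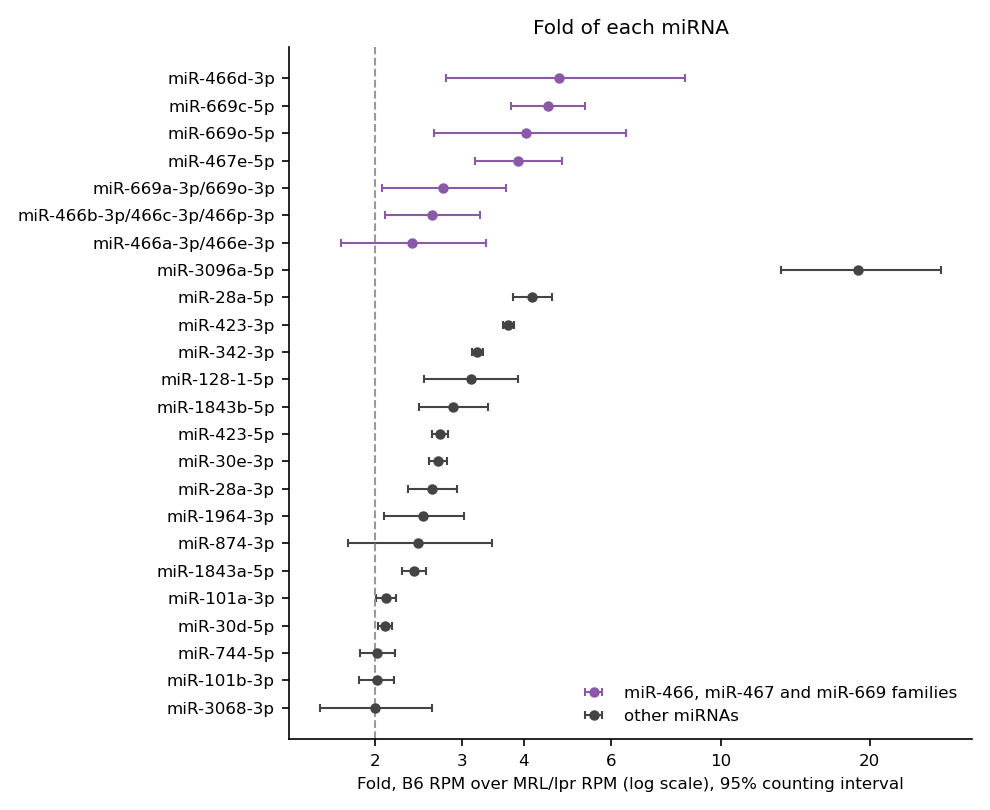
Fold of each sequence, B6 RPM over MRL/lpr RPM (log scale), with its 95% counting interval and a dashed line at the list's limit of 2. The miR-466, miR-467 and miR-669 families (purple) lie between 2.38 and 4.72, and miR-3096a-5p stands apart from the other 23 at 18.9.

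MiR-423-3p and miR-423-5p come from a hairpin on chromosome 11 and were together the most abundant members. MiR-423 is found in many tissues. MiR-423-3p had 30079 reads (894 RPM) in B6 against 7208 reads (240.5 RPM) in MRL/lpr, so that B6 was 3.72-fold higher (95% interval 3.62 to 3.82). MiR-423-5p had 11087 reads (329.6 RPM) in B6 against 3653 reads (122 RPM) in MRL/lpr, so that B6 was 2.70-fold higher (95% interval 2.60 to 2.81). The intervals do not overlap, so the folds of the arms differed by more than counting error. Within a library, where the scaling cancels, there were 2.71 reads of the 3p arm per read of the 5p arm in B6 and 1.97 in MRL/lpr. The fold of the 3p arm was 1.37 times that of the 5p arm (95% interval 1.31 to 1.44).

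MiR-28a, from a hairpin on chromosome 16 inside the gene *Lpp*, showed a similar difference between its arms, but toward the 5p arm. MiR-28 is best known from germinal centre B cells, where it restrains B cell receptor signalling. MiR-28a-5p had 2673 reads (79.5 RPM) in B6 against 573 reads (19.1 RPM) in MRL/lpr, so that B6 was 4.16-fold higher (95% interval 3.80 to 4.56). MiR-28a-3p had 1167 reads (34.7 RPM) against 398 reads (13.3 RPM), a difference of 2.61-fold (95% interval 2.33 to 2.94). For each read of the 3p arm, the B6 library had 2.29 reads of the 5p arm and the MRL/lpr library had 1.44. The ratio of the folds was 1.59 (95% interval 1.37 to 1.84). In these 2 hairpins the arm with more reads was the arm with the larger fold. For miR-669o it was not, as the 5p arm had fewer reads (118 and 26) than the 3p sequence (203 and 66). The fold of its 5p arm was 1.48 times that of the 3p sequence, with an interval of 0.868 to 2.56. Its 3p sequence is also that of miR-669a, so that the 3p reads cannot be assigned to 1 hairpin.

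MiR-342-3p is a miRNA of lymphocytes whose hairpin lies in the gene *Evl* on chromosome 12. It had 25958 reads (772 RPM) in B6 against 7177 reads (239 RPM) in MRL/lpr, so that B6 was 3.22-fold higher (95% interval 3.14 to 3.31). In MRL/lpr its level was nearly that of miR-423-3p, while in B6 it was below it.

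The miR-30 family, whose 5p members share a seed and occur in many tissues, was present with different arms of different hairpins. MiR-30d-5p, from chromosome 15, had 11355 reads (338 RPM) in B6 against 4832 reads (161 RPM) in MRL/lpr, so that B6 was 2.09-fold higher (95% interval 2.02 to 2.17). MiR-30e-3p, from a hairpin on chromosome 4 inside *Nfyc*, had 8672 reads (258 RPM) against 2878 reads (96.0 RPM), a difference of 2.69-fold (95% interval 2.57 to 2.80). As an opposite arm it does not carry the seed of miR-30d-5p.

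MiR-101 limits the T cell costimulator *Icos* in mouse T cells and the histone methyltransferase *EZH2* in human cancer cells. MiR-101a-3p, from chromosome 4, had 6454 reads (192 RPM) in B6 against 2733 reads (91.2 RPM) in MRL/lpr, so that B6 was 2.10-fold higher (95% interval 2.01 to 2.20). MiR-101b-3p, from chromosome 19, had 2010 reads (59.8 RPM) against 889 reads (29.7 RPM), a difference of 2.01-fold (95% interval 1.86 to 2.18). There were 3.21 reads of miR-101a-3p for each read of miR-101b-3p in B6 against 3.07 in MRL/lpr. The ratio of the folds was 1.04 (95% interval 0.953 to 1.14). The hairpins lie on different chromosomes, and at this depth a difference between their folds was not detectable.

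MiR-1843a-5p, from chromosome 12, had 4656 reads (138 RPM) in B6 against 1732 reads (57.8 RPM) in MRL/lpr, so that B6 was 2.40-fold higher (95% interval 2.27 to 2.53). MiR-1843b-5p, from chromosome 1, had 655 reads (19.5 RPM) against 203 reads (6.77 RPM), a difference of 2.88-fold (95% interval 2.45 to 3.38). The fold of miR-1843a-5p was 0.833 times that of miR-1843b-5p, with an interval of 0.702 to 0.986 that lies just below 1. How reads that fit both sequences were assigned is not given in the sources used here.

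Of the other members only miR-744-5p had over 1000 reads. MiR-744-5p, from a hairpin inside *Map2k4* on chromosome 11, had 2003 reads (59.6 RPM) in B6 against 882 reads (29.4 RPM) in MRL/lpr, so that B6 was 2.02-fold higher (95% interval 1.87 to 2.19). MiR-128-1-5p, from the gene *R3hdm1* on chromosome 1, had 382 reads (11.4 RPM) against 109 reads (3.64 RPM), a difference of 3.12-fold (95% interval 2.52 to 3.90). The counts of miR-1964-3p were 447 and 159 reads, those of miR-3068-3p 198 and 88 reads, and those of miR-874-3p 140 and 51 reads. Their folds were 2.51, 2.0 and 2.45, and the intervals of the last pair begin at 1.55 and 1.76.

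MiR-3096a-5p had the largest fold of the 24, with 679 reads (20.2 RPM) in B6 against 32 reads (1.07 RPM) in MRL/lpr, so that B6 was 18.9-fold higher (95% interval 13.3 to 27.9). Its lower counting limit is above the upper limit of every other member, the next being 8.45 for miR-466d-3p. It is also the shortest sequence. No gene of this name was found in the RefSeq tables, and no role is stated here.

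The miR-466, miR-467 and miR-669 families are rodent miRNAs that lie in a large cluster inside the gene *Sfmbt2* on chromosome 2. *Sfmbt2* encodes a Polycomb-related protein and is an imprinted gene, active mostly in extraembryonic tissue in the mouse. RefSeq places 71 miRNA genes within the span of *Sfmbt2*, and 29 of them bear the names of the 7 sequences. No miRNA of these families was among the higher miRNAs, and for how many other lower families the same holds was not counted. The 7 sequences had 2224 reads (66.1 RPM) in B6 against 557 reads (18.6 RPM) in MRL/lpr, 2.01% and 1.63% of the RPM of all members. The fold of these sums was 3.56 (95% interval 3.24 to 3.91).

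MiR-669c-5p was the most abundant of them, with 817 reads (24.3 RPM) in B6 against 163 reads (5.44 RPM) in MRL/lpr, so that B6 was 4.47-fold higher (95% interval 3.77 to 5.32). MiR-467e-5p had 532 reads (15.8 RPM) against 122 reads (4.07 RPM), a difference of 3.89-fold (95% interval 3.19 to 4.77). MiR-669o-5p had 118 reads (3.51 RPM) against 26 reads (0.868 RPM), a difference of 4.04-fold (95% interval 2.63 to 6.45). MiR-466d-3p had 90 reads (2.68 RPM) against 17 reads (0.567 RPM), a difference of 4.72-fold (95% interval 2.79 to 8.45). Lower folds were those of miR-669a/o-3p at 2.74, from 203 and 66 reads, of miR-466b/c/p-3p at 2.61, from 328 and 112 reads, and of miR-466a/e-3p at 2.38, from 136 and 51 reads. Summed by arm, the 3 sequences of 5p arms had a fold of 4.20 and the 4 of 3p arms a fold of 2.74, as a description of reads that also chose the members. MiR-669c-5p gave 817 of the 1467 reads of the 5p arms in B6, and the largest single fold was that of a 3p arm, miR-466d-3p. Among the other members no order of the arms held, since the summed fold was 2.48 for the 8 sequences of 5p arms and 3.10 for the 9 of 3p arms, while the median fold was 2.79 and 2.51. MiR-423-3p and miR-342-3p held most of the reads of these 3p arms.

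The fold of miR-466d-3p was 1.99 times that of miR-466a/e-3p, with which it shares the seed (95% interval 1.05 to 3.90). It was 1.81 times that of miR-466b/c/p-3p (95% interval 1.01 to 3.38). Both intervals reach almost to 1. How reads that fit more than 1 of these miR-466 sequences were assigned is not given in the sources used here. No difference was detectable between miR-466b/c/p-3p and miR-466a/e-3p (ratio 1.10, 95% interval 0.729 to 1.64) or between miR-669c-5p and miR-669o-5p (ratio 1.10, 95% interval 0.671 to 1.77). In all, 9 such pairs were compared, and the interval left out 1 for 5 of them, with no adjustment for their number.

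**Figure D3:**
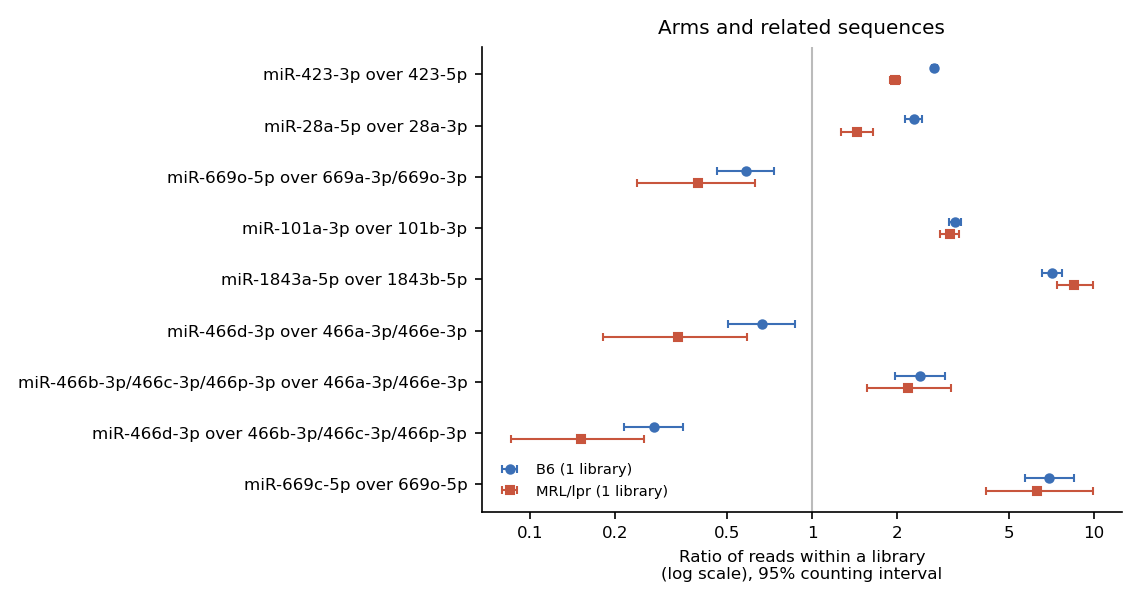
Ratio of the reads of 2 related sequences within each library (log scale), for B6 (circles) and MRL/lpr (squares), with 95% counting intervals. The ratio of the arms was 2.71 in B6 and 1.97 in MRL/lpr for miR-423, and 2.29 and 1.44 for miR-28a, while miR-101a-3p over miR-101b-3p was 3.21 and 3.07.

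The members of this cluster share a feature of sequence that the rule did not use. The longest stretch in which purines and pyrimidines alternate, as in runs of CA or TG, was 8 to 20 bases with a median of 18 in the 7 sequences. In the other 17 members it was 2 to 6 bases with a median of 4. Of the 102 distinct sequences listed outside these families, 2 had such a stretch of 10 bases or more, against 6 of the 7. Their share of G and C was 31.8% to 40.9%, with a median of 34.8%, against a median of 50% in the other members.

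Of the protein-coding genes whose span holds a member's hairpin, 13 in number with strand not considered, *Sfmbt2* alone was in the deposited mRNA tables. It had 2.13 FPKM in B6 against 1.01 FPKM in MRL/lpr, 2.11-fold lower. Of the 71 miRNA genes within it, those that do not belong to the 7 sequences were not analysed here. FPKM are fragments scaled to transcript length and library size, a unit the tables do not name and that was taken from their column names. The tables hold only mRNAs that differed and were predicted targets, here of miR-410-3p, miR-500-3p and miR-501-3p, so the other 12 genes are not read as unchanged. In libraries of whole T cell preparations, fewer cells of a type and less RNA per cell cannot be told apart.

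The deposited table of 440 mRNAs higher in MRL/lpr names, for each gene, its partners among the lower miRNAs according to a prediction list. It names a member for 253 genes, 57.5% of the table, and for 227 of them members only. All these mRNAs are in the table because they were higher, so their direction is no result. Of the 253 genes, 125 (49.4%) were at least 4-fold higher, against 49.8% of the whole table. Their median log2 fold was 1.98, against 1.99. The paired genes and the whole table thus had nearly the same median and share. Of the 253, 95 were under 1 FPKM in both libraries, against 164 of the 440 of the whole table. The number of fragments behind such low values is not given. Some of these genes had the same fold, such as 2.13663 for *Adamts1*, *Adamts4* and *Cyp1b1*, and 32.0495 for *Dmrt2* and *Mstn*. Their values may thus rest on few fragments.

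At least 1 gene was named for 13 of the 24 sequences. MiR-466d-3p had 46, miR-30d-5p 37, miR-101a-3p 31, miR-101b-3p 30, miR-466b-3p and miR-874-3p 29 each, and miR-342-3p and miR-423-5p 25 each. MiR-467e-5p had 17, miR-669o-5p 16, miR-744-5p 6, and miR-423-3p and miR-1964-3p 3 each. The member with the fewest B6 reads had the most genes, and the member with the most reads had 3. MiR-466a/e-3p had no gene in spite of sharing its seed with miR-466d-3p, and of the 3 names of miR-466b/c/p-3p only miR-466b-3p was named. Whether the prediction list held the other names is not known. The genes of miR-101a-3p and miR-101b-3p were nearly the same, with 29 shared, 93.5% and 96.7% of each list. Those of miR-466d-3p and miR-466b-3p, whose seeds are shifted by 1 base, shared 3 genes, 6.52% and 10.3% of each list.

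**Figure D4:**
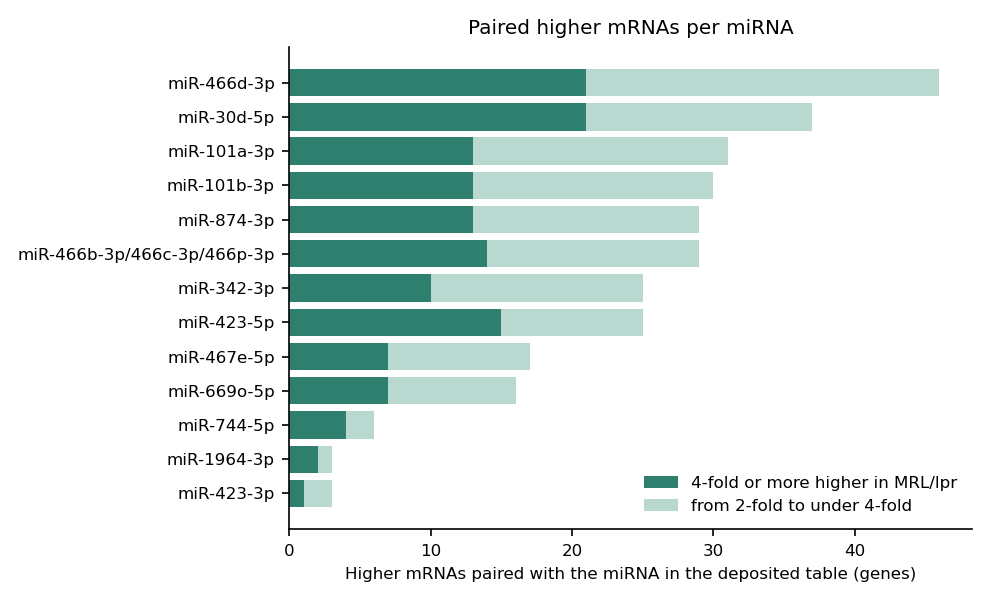
Number of higher mRNAs that the deposited table pairs with each of 13 sequences, split into those at least 4-fold higher in MRL/lpr (dark) and those under 4-fold (light). The bars run from 3 genes to the 46 of miR-466d-3p, of which 21 were at least 4-fold higher.

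*Fos*, a subunit of the AP-1 transcription factor that T cell stimulation induces, was paired with miR-101a-3p and miR-101b-3p and had 427 FPKM in B6 against 982 FPKM in MRL/lpr, with a log2 fold of 1.20. *Ezh2*, the methyltransferase of Polycomb complex PRC2, was paired with both as well, at 14.1 and 36.4 FPKM, a log2 fold of 1.37. *Abcd2*, a peroxisomal transporter of fatty acids, had the largest fold of their genes with at least 1 FPKM in MRL/lpr, at 0.108 and 2.72 FPKM. The genes of miR-101a-3p had a median log2 fold of 1.77. *Ezh2* was also paired with a lower miRNA left out by name, so miR-101 was not its only partner.

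*Bhlhe40*, a transcription factor of effector T cells, was the most abundant gene of miR-342-3p, at 107 FPKM in B6 against 247 FPKM in MRL/lpr, with a log2 fold of 1.21. *Sox6*, also a transcription factor, had 0.0659 and 1.80 FPKM. For miR-30d-5p the most abundant gene was *Rhob*, a small GTPase, at 57.6 and 149 FPKM, a log2 fold of 1.37. *Socs3*, an inhibitor of cytokine signalling through STAT3, had 39.9 and 83.1 FPKM. *Pawr*, which promotes apoptosis, had 0.268 and 3.37 FPKM. Like *Bhlhe40*, *Pawr* was also paired with a lower miRNA left out by name. The median log2 fold was 1.56 over the genes of miR-342-3p and 2.38 over those of miR-30d-5p.

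Among the genes of miR-423-5p, *Psma1*, a proteasome subunit, had 34.4 and 71.0 FPKM. *Cd177*, a surface protein of neutrophils, had 0.449 and 48.4 FPKM, a log2 fold of 6.75, the largest of any gene named here. MiR-423-3p was paired with *Stau2*, an RNA-binding protein, at 0.194 and 1.07 FPKM. MiR-744-5p was paired with *Mki67*, a protein of dividing cells, at 12.7 and 83.1 FPKM, a log2 fold of 2.71. Of the genes of miR-874-3p, *Bak1*, which permeabilizes mitochondria in apoptosis, had 12.4 and 38.3 FPKM, and *Sort1*, a sorting receptor, had 0.497 and 8.96 FPKM. MiR-1964-3p was paired with *Atat1*, a tubulin acetyltransferase, at 1.75 and 8.70 FPKM.

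The miRNAs of the *Sfmbt2* cluster were named for 104 genes, of which 46.2% were at least 4-fold higher, against 49.8% of the table. *Lmnb1*, of the nuclear lamina, was the most abundant gene of miR-466b-3p, at 22.0 and 72.7 FPKM. *Nrg1*, a ligand of ErbB receptors, had 0.0305 and 2.65 FPKM. For miR-466d-3p the genes chosen were *Ier3*, an immediate early gene, at 4.57 and 31.5 FPKM, and *Arhgef10l* at 0.0345 and 1.5 FPKM. For miR-467e-5p they were *Ifitm1*, an interferon-induced gene, at 7.37 and 29.1 FPKM, and *Cdkn2b*, an inhibitor of cyclin-dependent kinases, at 0.0732 and 2.29 FPKM. For miR-669o-5p they were *Dusp4*, a MAP kinase phosphatase, at 16.6 and 34.9 FPKM, and *Ttbk1*, a kinase of tau, at 0.213 and 1.41 FPKM. Of these 8 genes, *Nrg1* at 87.1-fold, *Arhgef10l* at 43.3-fold and *Cdkn2b* at 31.3-fold had the largest differences, and each was under 1 FPKM in B6.

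**Figure D5:**
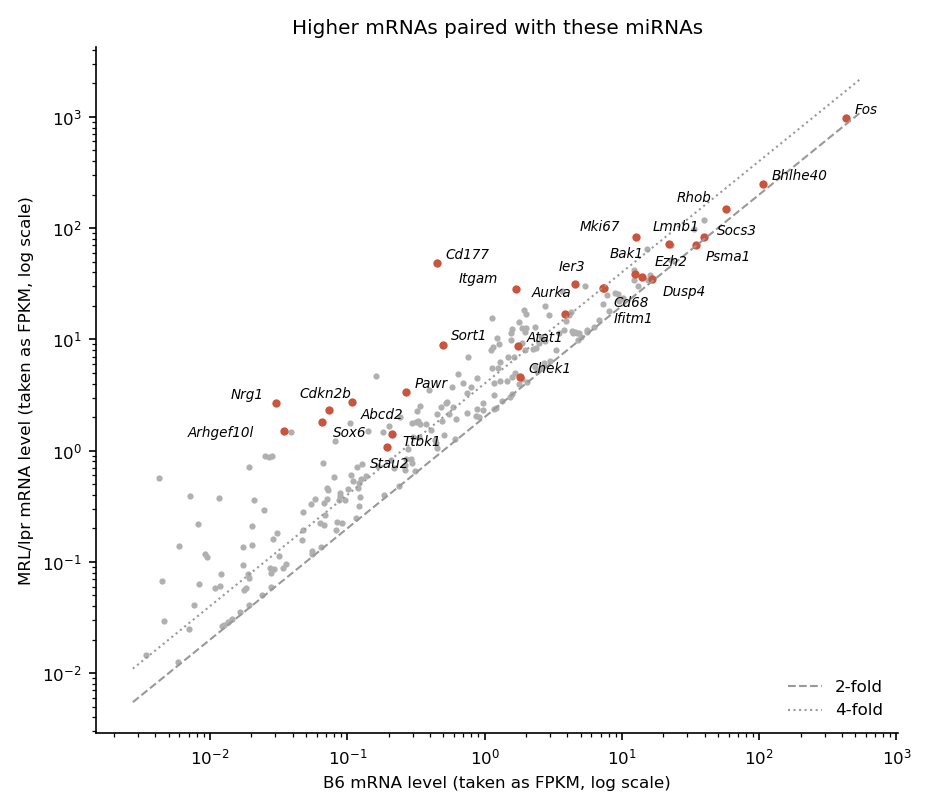
Level of the 253 paired mRNAs in B6 (x axis) and MRL/lpr (y axis), taken as FPKM on log scales, with lines at 2-fold and 4-fold and in red the genes named for a single miRNA, for miR-101 or from a list. *Fos* has the highest level in both libraries, and *Cd177* lies far above the 4-fold line.

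No gene was paired with more than 2 member seeds. The 15 genes paired with 2 were *Cav2*, *Cspg5*, *Dmrt2*, *Fgd6*, *Gldc*, *Gprc5a*, *Gtse1*, *Klf15*, *Leprot*, *Lima1*, *Lmln*, *Lrrc16a*, *Mdm1*, *Pdgfd* and *Zfp608*. For *Dmrt2*, *Klf15* and *Pdgfd* the seeds were those of miR-466b-3p and miR-466d-3p, which are shifted by 1 base and so not independent. Of the 15, 9 were under 1 FPKM in both libraries, against 164 of the 440 genes of the whole table. *Leprot*, a regulator of receptor trafficking paired with miR-101 and miR-30d-5p, was the most abundant of the 15, at 15.6 and 34.1 FPKM. *Gtse1*, a protein of dividing cells paired with miR-466b-3p and miR-467e-5p, had 2.26 and 8.22 FPKM. At least 4-fold higher were 4 of the 15 (26.7%), against 49.8% of the table, and their median log2 fold was 1.53.

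Gene lists of T cell function and cell types were set beside these pairs. Of both mRNA tables together, 67.5% of genes were higher in MRL/lpr. Of 22 genes of cell division, 6 were in the table of higher mRNAs and none in that of lower ones. *Mki67*, *Aurka* and *Chek1* were paired with members, and *Ccne2*, *Cks2* and *Stmn1* with other miRNAs only. *Aurka*, a mitotic kinase, was paired with miR-466d-3p at 3.85 and 17.0 FPKM, and *Chek1*, a checkpoint kinase, with miR-466b-3p at 1.82 and 4.61 FPKM. Of 22 genes of T cell activation, *Irf4* and *Tnfrsf9* were higher, with no member as a partner. Of 16 genes of cytokine signalling only *Socs3* was in the tables. Of 10 genes of chromatin and DNA methylation, *Ezh2* was higher and *Tet1* and *Tet3* were lower.

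Of 8 markers of myeloid cells and neutrophils, 3 were in the table of higher mRNAs, each paired with a member, and 5 were in neither table. *Itgam*, an integrin of myeloid cells paired with miR-466d-3p, had 1.71 and 28.1 FPKM, and *Cd68*, a lysosomal protein of macrophages paired with miR-467e-5p, had 7.28 and 28.7 FPKM. The other was *Cd177*. Of 5 markers of CD8 T and NK cells, *Klrd1* was lower and none was higher. None of 5 markers of CD4 T cells, 5 of B and plasma cells and 4 of erythroid cells was in either table, which cannot show that they were absent or unchanged. The part of other cell types in the levels of these miRNAs and mRNAs was not tested.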

How the data were processed

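Splenic CD4+ T cells from a B6 and an MRL/lpr mouse gave 1 library each for small RNA and for mRNA. Not given in the sources used here were the aligner, the genome build and the miRBase release. The authors deposited the count of reads of each mature miRNA, its RPM (scaled to all trimmed reads) and the ratio of the RPM values, listing miRNAs that differed at least 2-fold and had 100 or more reads in all. For mRNA the authors deposited values taken here as FPKM, for genes that differed and that a prediction list pairs with a changed miRNA. Columns of the authors' own comparisons (a log2 fold, a signed fold or test score, and p-values and q-values) were not used.

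Folds, sums and exact Clopper-Pearson and conditional exact 95% intervals were computed from the reads with Python 3.11.15, NumPy 2.4.6, SciPy 1.17.1 and pandas 2.3.3. Matplotlib 3.10.9 drew the plots. Reads are not independent molecules, so intervals cover counting error only. The interval script was tested on simulated data. No depth is given for the mRNA libraries. A single read equals 0.0297 RPM for B6 and 0.0334 RPM for MRL/lpr. Chromosomes and enclosing genes come from RefSeq (GRCm38.p6), whose coordinates are not printed because the build of the miRNA files is not known.

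The members and lists were chosen with earlier results of these data known. Named are all members, with full values for the 10 with the most RPM in B6 and the 10 with the largest fold. Named mRNAs are the most abundant gene of each member, its gene with the largest fold among those of at least 1 FPKM in MRL/lpr, the genes with the most member seeds, and listed genes paired with a member. Values for *Sfmbt2*, the pairs of related sequences and the alternating stretches were chosen after the data were seen, as were the values by arm of the cluster. Groups hold 1 library, so no test was made. Alternatives were other limits on fold, reads and FPKM, values added to RPM or FPKM, scaling to the miRNA totals, and other ways of counting.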

Additional observations from a re-analysis of the deposited data

How the results depend on the processing

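No paired analysis was possible because a strain has a single library per assay, so nothing was tested. The 24 members became 5 at a fold of 4, 11 with at least 1000 reads and 9 with 10 RPM added to both values, and 19 to 28 under the other alternatives. The 28 counts names with an identical sequence separately. When scaled to the miRNA totals the count of 24 could not fall, and miRNAs under the limit of 2 were not listed. The authors' miRNA total was 1.20 times higher in MRL/lpr, so scaling to it raises each fold by that factor, and the median fold from 2.69 to 3.24. With 10 RPM added the median fold was 1.80, by the construction of that setting. Of 72 recomputed folds of single members, 39 left their counting interval (23 at 10 RPM added, 13 when scaled and 3 at 1 RPM added). None was reversed, but these settings could not reverse a fold. They add the same value to both libraries or raise every fold. The 3 at 1 RPM added were miR-3096a-5p (18.9 to 10.2), miR-466d-3p (4.72 to 2.35) and miR-669o-5p (4.04 to 2.41). Ratios within a library do not depend on the scaling. The 253 paired mRNAs became 158 with at least 1 FPKM in either library and 125 at 4-fold. With 1 FPKM added to both values, the median log2 fold of the paired mRNAs was 0.94 and the share at 4-fold or more was 10.7%, against 0.94 and 10% over the whole table, as low levels shrink by construction. The other alternatives left these values close to those of the whole table. Depth limits the members with few reads most, such as miR-466d-3p.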
